A study of Mus musculus with 56 samples.

Results

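The TNF superfamily ligands described here were *Tnfsf4*, *Tnfsf8*, *Tnfsf10*, *Tnfsf11*, *Tnfsf14* and *Cd40lg*. They were taken from the count table by Ensembl identifier, as 6 of its 55359 genes, and all 6 passed the filter on low counts that left 19657 genes for testing. RNA was measured by SmartSeq2, a full-length cDNA method, in OVA:Kb-specific CD8+ T cells (T_FGS) of C57BL/6 females, with 200 cells sorted per library from spleen and lymph nodes. Naive (n = 3) mice received nothing and Sensitized (n = 4) mice had rejected a 2W-OVA.BALB/c skin graft. Naive mice after pregnancy by a 2W-OVA.BALB/c male gave a PD1- subset (N+P C1, n = 3) and a PD1+CD73+ subset (N+P C5, n = 3). Sensitized mice after such a pregnancy gave a PD1- subset (S+P C4, n = 6), a PD1+CD73+ subset (S+P C5, n = 6) and a PD1+CD73- subset (S+P C7, n = 5). Subsets that carry the same replicate number in the labels were treated as sorts from 1 mouse. The females were young adults when bought, and their age at sorting is not given in the sources used here. The 2W-OVA.BALB/c donors and sires carry 2W and OVA as a transgene under an actin promoter, and the OVA:Kb tetramer marks the CD8+ T cells specific for 1 peptide of it. The subsets were cut on surface PD1 and CD73 within post-partum mice, while Naive and Sensitized cells were not split in this way. The sort gate and pregnancy therefore cannot be told apart in a comparison of C5 with an unmated group. In the study, mating followed the graft by weeks and post-partum mice were examined just after delivery. Time since the graft may therefore also differ between S+P and Sensitized samples.

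TNF superfamily ligands are mostly trimeric membrane proteins that signal to a partner cell through receptors of the TNF receptor superfamily, whose tails recruit TRAF adaptors and activate NF-kappaB, or, for death receptors, caspases. On T cells several of them appear only after antigen contact and act on dendritic cells, B cells or other T cells. *Tnfsf4* encodes OX40L, the ligand of the costimulatory receptor OX40, and is best known from antigen-presenting cells. *Tnfsf8* encodes CD30L. *Cd40lg* encodes CD40L, the main signal of helper T cells to B cells and dendritic cells. *Tnfsf11* encodes RANKL, which drives osteoclast formation and prolongs dendritic cell survival. *Tnfsf14* encodes LIGHT, which binds HVEM and the lymphotoxin beta receptor, and *Tnfsf10* encodes TRAIL, which triggers apoptosis through death receptors.

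Library quality bears on every value. The 30 summed samples held 15547934 to 54809406 counts. They had 12383 to 26805 detected genes, except for S+P C4 replicate 2 (8002 genes), S+P C4 replicate 3 (7436) and S+P C7 replicate 3 (7879). These 3 are called low-detection samples below. They are among 7 samples made from a single library. The others were Naive replicate 1 (12829 genes), S+P C4 replicate 1 (12383), S+P C5 replicate 2 (12416) and S+P C5 replicate 3 (12652). A library that was identical in Naive and S+P C4 was left out of both, and 2 nearly identical libraries of S+P C7 replicates 1 and 2 (Pearson's r 0.998 across genes) were averaged and are given as replicate 1/2. The CD8 T cell markers *Cd8a*, *Cd8b1*, *Cd3d*, *Cd3e*, *Cd3g* and *Trac* were present in all 30 samples, at a summed 4490 to 8787 CPM (counts per 1000000 of the TMM-scaled library). Of the CD4 T cell markers, *Cd4* was at 0 in 27 of the 30 samples and reached 3.71 CPM, while *Zbtb7b* was at 0 in 7 and reached 28.6 CPM in Sensitized. Of the B cell markers, *Ms4a1* was at 0 in 27 and reached 3.04 CPM, while *Cd79b* was at 0 in 7 and was highest in N+P C5 (33.3 to 61.2 CPM, against 5.60 to 27.5 in N+P C1 and 10.9 to 34.0 in Naive). The 6 myeloid and dendritic cell markers summed to 42.7 to 399 CPM in Sensitized, 30.6 to 109 in S+P C5, 0 to 119 in S+P C4, 57.5 to 136 in S+P C7, 15.6 to 21.2 in N+P C5, 0.861 to 7.59 in N+P C1 and 2.49 to 47.5 in Naive, led by *Lyz2* (332) in the highest sample. The part of these markers in the results was not tested. The 3 NK cell markers summed to 53.3 to 126 CPM in Sensitized and 0.833 to 90.7 in S+P C4. They reached 62.2 in S+P C5, 9.42 in N+P C5, 1.11 in N+P C1 and 0.0823 in Naive. The 4 erythroid and platelet markers reached 350 CPM in S+P C4, 174 in S+P C7 replicate 1/2 and 105 in N+P C5. Their part in the results was not tested either. S+P C7 replicate 3 stood apart with a summed 16708 CPM of the erythroid and platelet markers and 469 CPM of the NK cell markers. The genes of the sort gates, *Pdcd1* and *Nt5e*, summed to only 0.0467 CPM there. For *Pdcd1* this went against its PD1+ label, while low *Nt5e* goes with its CD73- label. The same sum was 220 to 592 CPM in the other S+P C7 samples, 142 to 548 in S+P C5, 0 to 214 in S+P C4, 305 to 534 in N+P C5 and 36.0 to 135 in N+P C1. In bulk samples, fewer cells that express a gene and less RNA per cell cannot be told apart.

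The first question was whether any ligand differed anywhere among the 7 sorted groups. *Tnfsf4* did (edgeR quasi-likelihood F test, adjusted p = 0.0197, rank 64 of the 19657 genes). Across all genes, 1.84% were called in that test, and among the ligands it was 1 of 6. The other 5 were not called: adjusted p was 0.161 for *Tnfsf11*, 0.435 for *Tnfsf8*, 0.616 for *Cd40lg*, 0.729 for *Tnfsf14* and 1.00 for *Tnfsf10*. The replicate block, with mouse as a random effect in limma-voom, called 4 of 6 (4.28% of all genes), with adjusted p = 1.1e-06 for *Tnfsf4*, 0.000448 for *Tnfsf11*, 0.0130 for *Tnfsf8* and 0.0685 for *Cd40lg*. The same limma-voom model without the mouse term also called these 4 (3.76% of all genes), so these calls did not depend on the mouse term.

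**Figure D1:**
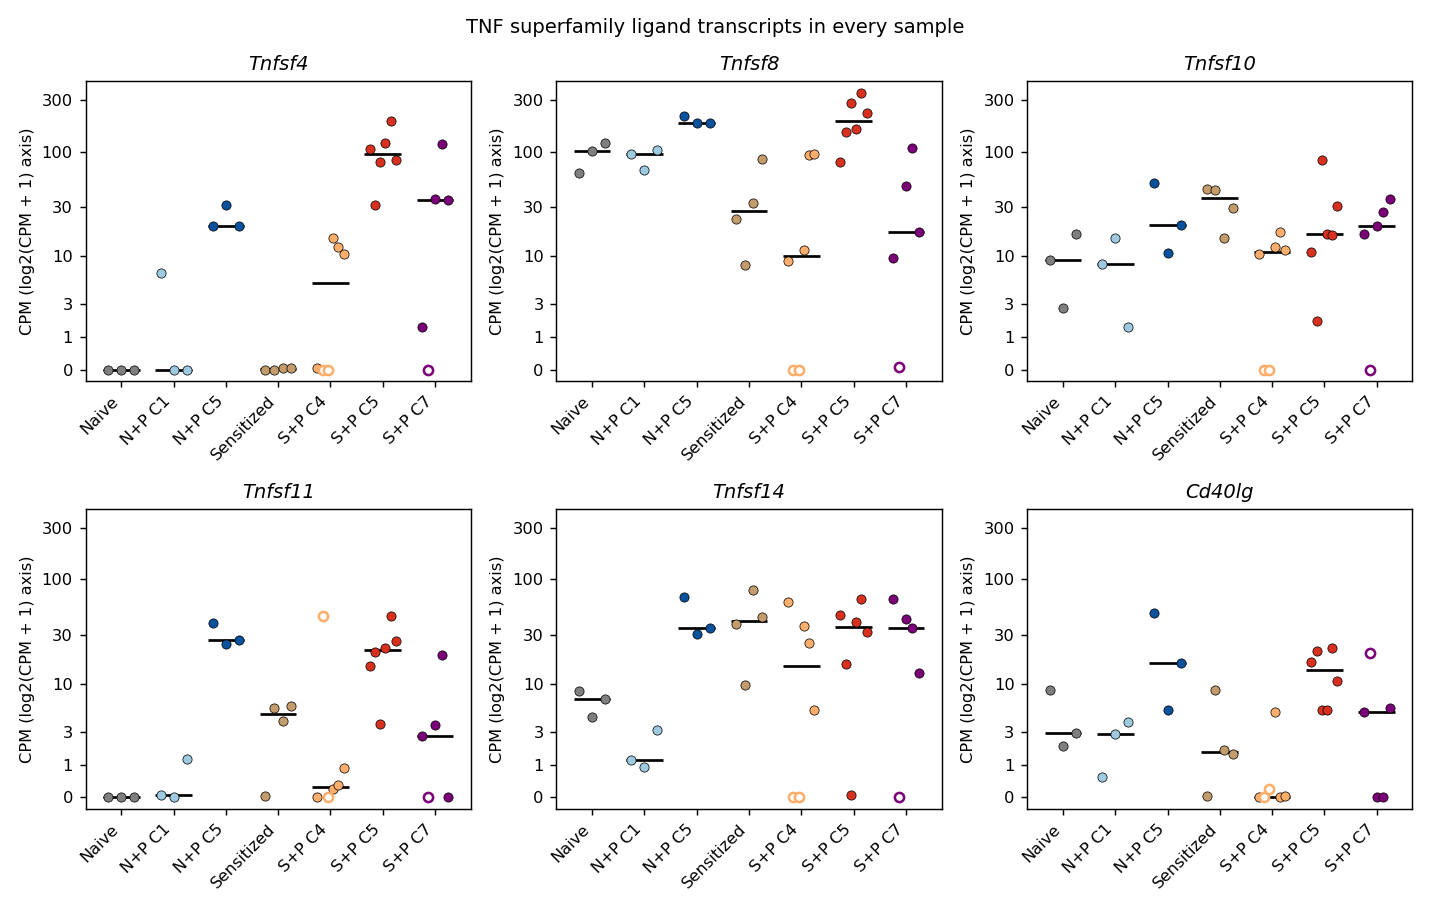
CPM of each ligand (y axis, log2(CPM + 1) scale) in every sample of the 7 sorted groups (x axis). Points are samples, black lines are group medians and open points are the 3 low-detection samples. *Tnfsf4* was at 0 in the 3 Naive samples and between 31.4 and 192 CPM in the 6 S+P C5 samples.

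*Tnfsf4* (ENSMUSG00000026700, OX40L) lies on GRCm39 chromosome 1 from 161222980 to 161245981, plus strand. Without pregnancy it was close to absent: it had 0 counts in all 3 Naive samples, where 3 counts per sample would be 0.112 CPM, and 2 counts in all over the 4 Sensitized samples. N+P C5 replicates 1, 2 and 3 had 20.004, 31.4 and 20.02 CPM. In N+P C1 replicate 1 had 6.75 CPM and the other 2 samples had 0, so every N+P C5 sample was above every N+P C1 and Naive sample. The 6 S+P C5 samples ran from 31.4 CPM over a median of 94.8 to 192 CPM, above every Sensitized sample and above every S+P C4 sample, where the lowest, median and highest were 0, 5.26 and 15.1 CPM. S+P C7 replicates 1/2, 3, 4, 5 and 6 had 1.49, 0, 35.7, 116 and 35.6 CPM, which overlapped both S+P C4 and S+P C5. The 3 S+P C4 samples at 10.5 to 15.1 CPM were replicates 4, 5 and 6, while replicate 1 (12383 detected genes) had 1 count and the low-detection replicates 2 and 3 had 0.

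Set in order of the mean, the *Tnfsf4* level was highest in S+P C5 (102 ± 53.6 CPM, SD, n = 6), followed by S+P C7 (37.8 ± 47.3, n = 5), N+P C5 (23.8 ± 6.60, n = 3), S+P C4 (6.34 ± 7.08, n = 6), N+P C1 (2.25 ± 3.90, n = 3), Sensitized (0.0141 ± 0.0164, n = 4) and Naive (0, n = 3). Of the neighbours in this order, only N+P C5 and S+P C4 did not overlap. The mean of N+P C5 was at least 213-fold higher than Naive, taken against 3 counts per sample (edgeR, unadjusted p = 0.000925, adjusted p = 0.433). With the replicate block in limma-voom the adjusted p was 0.00553.

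Against Sensitized, the *Tnfsf4* ratio of S+P C5, taken over the summed counts at equal library size, was 8039 (95% counting interval 2225 to 66383, on 2 Sensitized counts; edgeR unadjusted p = 9.58e-05, adjusted p = 0.126). The block fit gave an adjusted p of 4.62e-06, and edgeR without the 3 low-detection samples gave 0.00142. For S+P C7 the ratio was 2996 (829 to 24747; edgeR unadjusted p = 0.000251, adjusted p = 0.409), with an adjusted p of 0.0518 in the block fit and 0.00769 without the low-detection samples. The fitted log2 difference of 11.04 for S+P C7 was 10.01 without replicate 5, its highest sample. S+P C4 had a ratio of 620 (171 to 5129; edgeR unadjusted p = 0.00148, adjusted p = 0.317). These intervals cover counting error only, since PCR copies without molecular identifiers are not independent molecules. S+P C5 exceeded S+P C4 by 4.01 on the log2 scale (SE 1.56, 95% interval 0.82 to 7.20; edgeR unadjusted p = 0.0155, adjusted p = 0.297, block adjusted p = 0.0102). In N+P C1 against Naive the ratio was at least 20.1-fold (edgeR unadjusted p = 0.00685, adjusted p = 0.997), but it rested on replicate 1 alone: without it N+P C1 had no count and the fitted log2 difference was 0.

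*Tnfsf8* (ENSMUSG00000028362, CD30L; GRCm39 chromosome 4, 63749542 to 63779592, minus strand) was the ligand with the highest mean level in Naive mice. Naive replicates 1 to 3 had 63.4, 101 and 120.0 CPM, and N+P C1 replicates 1 to 3 had 95.9, 67.3 and 103 CPM, so these groups overlapped. N+P C5 replicates 1 to 3 had 215, 182 and 186 CPM and lay above every sample of both. The Sensitized samples, replicates 1 to 4, had 23.1, 8.15, 32.8 and 85.7 CPM, and the mean of 37.4 ± 33.8 CPM (SD, n = 4) compared with 94.8 ± 28.8 CPM in Naive (n = 3). S+P C5 ran from 80.7 CPM over a median of 194 to 348 CPM and overlapped Sensitized by 1 sample on each side. The lowest, median and highest S+P C4 samples had 0, 10.2 and 94.1 CPM.

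S+P C7 replicates 1/2, 3, 4, 5 and 6 had 9.68, 0.0467, 47.9, 108 and 17.4 CPM of *Tnfsf8*, of which replicate 5 alone reached the S+P C5 range. S+P C5 exceeded S+P C4 by 2.58 on the log2 scale (SE 1.11, 95% interval 0.32 to 4.85; edgeR unadjusted p = 0.0268, adjusted p = 0.309, block adjusted p = 0.0253). S+P C7 against S+P C5 was -2.51 (SE 1.19, 95% interval -4.93 to -0.09, edgeR unadjusted p = 0.0429, adjusted p = 0.364). It was -3.44 when replicate 5 of S+P C7 was left out. Without replicate 3, the sample whose *Pdcd1* level goes against its label, it was -2.18. These were the 2 comparisons of *Tnfsf8* with an unadjusted p under 0.05.

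*Cd40lg* (ENSMUSG00000031132, CD40L; GRCm39 chromosome X, 56257405 to 56269902, plus strand) was low outside the C5 subsets. Naive replicates 1 to 3 had 8.60, 1.99 and 2.91 CPM, N+P C1 had 0.542, 2.79 and 3.93 CPM, and Sensitized replicates 1 to 4 had 0.0180, 8.70, 1.73 and 1.48 CPM. N+P C5 replicates 1 to 3 had 48.1, 5.41 and 16.0 CPM, above every N+P C1 sample, while replicate 2 fell within the Naive range. S+P C5 ran from 5.29 CPM over a median of 13.7 to 22.4 CPM, and S+P C4 from 0 over 0.0110 to 5.07 CPM, with no overlap. S+P C7 replicates 1/2, 3, 4, 5 and 6 had 5.04, 20.4, 0, 0 and 5.60 CPM, and the sample at 20.4 was the low-detection replicate 3. S+P C5 exceeded S+P C4 by 3.93 on the log2 scale (SE 1.70, 95% interval 0.47 to 7.39; edgeR unadjusted p = 0.0273, adjusted p = 0.309, block adjusted p = 0.00811). The size rested on S+P C4 replicate 4, which held nearly all counts of that group: without it the difference was 8.47.

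*Tnfsf11* (ENSMUSG00000022015, RANKL; GRCm39 chromosome 14, 78514885 to 78545490, minus strand) had 0 counts in all 3 Naive samples. N+P C1 replicates 1 to 3 had 0.0603, 0 and 1.26 CPM, and N+P C5 replicates 1 to 3 had 39.02, 24.5 and 26.8 CPM, above every sample of both groups. Sensitized replicates 1 to 4 had 0.0180, 5.60, 4.01 and 5.95 CPM. In S+P C5 the lowest, median and highest samples had 3.71, 21.6 and 45.9 CPM, which overlapped Sensitized through replicate 3 alone. The lowest, median and highest S+P C4 samples had 0, 0.249 and 45.6 CPM, the last being the low-detection replicate 2, and the other 5 reached at most 0.861 CPM. S+P C7 replicates 1/2, 3, 4, 5 and 6 had 2.69, 0, 3.64, 19.3 and 0 CPM.

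The mean *Tnfsf11* level of N+P C5 was at least 269-fold higher than that of Naive (edgeR unadjusted p = 0.00192, adjusted p = 0.667, block adjusted p = 0.00141), and exceeded N+P C1 by 6.08 on the log2 scale (SE 2.80, 95% interval 0.35 to 11.80; edgeR unadjusted p = 0.0383, adjusted p = 0.919, block adjusted p = 0.0610). Of the 46 counts in N+P C1, 44 were in replicate 3, and without it the latter difference was 9.79. Sensitized was at least 34.7-fold higher than Naive (edgeR unadjusted p = 0.00713, adjusted p = 0.627), with all of the counts in the 3 higher Sensitized samples coming from 1 of their 2 libraries. N+P C1 was at least 3.94-fold higher than Naive (edgeR unadjusted p = 0.0378, adjusted p = 0.997), a bound that rests on replicate 3: the other 2 samples had 2 counts and 0, under the floor of 3, and the fitted log2 difference of 6.87 was 3.17 without it. Between S+P C5 and S+P C4 edgeR gave no unadjusted p under 0.05, and the block fit gave an adjusted p of 0.0502. The 7-group test of *Tnfsf11* gave an adjusted p of 0.0609 without S+P C4 replicate 2 and 0.0141 without all 3 low-detection samples.

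*Tnfsf14* (ENSMUSG00000005824, LIGHT; GRCm39 chromosome 17, 57496451 to 57501177, minus strand) shares its locus with *Gm65552*, a long noncoding RNA on the other strand. Reads of the 2 genes cannot be told apart here, and the strand setting of the counting is not given in the sources used. Naive replicates 1 to 3 had 8.56, 4.51 and 7.03 CPM, and N+P C1 replicates 1 to 3 had 1.21, 0.906 and 3.19 CPM, all below Naive. N+P C5 replicates 1 to 3 had 68.0, 30.7 and 34.8 CPM, above every sample of both groups. Sensitized replicates 1 to 4 had 37.8, 9.70, 79.7 and 44.1 CPM, all above Naive. The lowest, median and highest samples were 0, 15.2 and 60.9 CPM in S+P C4 and 0.0495, 36.0 and 65.9 CPM in S+P C5. S+P C7 replicates 1/2, 3, 4, 5 and 6 had 65.1, 0, 42.8, 35.2 and 12.8 CPM, so the 4 groups from sensitized mice overlapped one another. N+P C5 exceeded N+P C1 by 4.65 on the log2 scale (SE 2.00, 95% interval 0.57 to 8.73; edgeR unadjusted p = 0.0269, adjusted p = 0.919), the only comparison of *Tnfsf14* with an unadjusted p under 0.05. Without N+P C1 replicate 3 it was 5.42.

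*Tnfsf10* (ENSMUSG00000039304, TRAIL; GRCm39 chromosome 3, 27371033 to 27396576, plus strand) was the ligand with no comparison under 0.05. Naive replicates 1 to 3 had 9.10, 2.72 and 16.7 CPM, N+P C1 had 8.44, 15.2 and 1.46 CPM, and N+P C5 had 51.1, 10.7 and 20.5 CPM. Sensitized replicates 1 to 4 had 44.7, 44.1, 15.2 and 29.3 CPM, the highest mean of any group (33.3 ± 14.03, SD, n = 4). The lowest, median and highest samples were 0, 11.1 and 17.6 CPM in S+P C4 and 1.83, 16.5 and 83.5 CPM in S+P C5. S+P C7 replicates 1/2, 3, 4, 5 and 6 had 16.7, 0, 20.01, 27.2 and 36.0 CPM. Every neighbouring pair of groups in the order of *Tnfsf10* means overlapped.

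In all, 14 of the 66 pairs of a ligand and a comparison had an unadjusted p under 0.05 and none passed both thresholds (log2 fold change beyond 0.9 in either direction, with adjusted p below 0.1). Their lowest adjusted p was 0.126. Few genes of any kind passed both in edgeR: 0.153% of all genes for Sensitized against Naive, 0.0407% for N+P C5 against Naive, 0.00509% for N+P C5 against N+P C1, 0.00509% for S+P C4 against Sensitized, 0.0305% for S+P C7 and 0.0712% for S+P C5 against it, 0.00509% for S+P C7 and 0.0305% for S+P C5 against S+P C4, and 0% for the other 3. At an unadjusted p under 0.05 stood 2 ligands of 6 for N+P C5 against Naive (5.33% of all genes), 2 for N+P C5 against N+P C1 (4.31%), 2 for N+P C1 against Naive (3.23%) and 1 for Sensitized against Naive (7.82%). In the sensitized mice it was 3 for S+P C5 against S+P C4 (13.3%), 1 for S+P C5 against Sensitized (13%), 1 for S+P C4 against Sensitized (12.7%), 1 for S+P C7 against Sensitized (10.2%), 1 for S+P C7 against S+P C5 (12.7%), 0 for S+P C7 against S+P C4 (15.9%) and 0 for S+P C5 against N+P C5 (5.88%). DESeq2 on the same samples called 2 ligands, *Tnfsf4* and *Tnfsf11*, in N+P C5 against Naive (2.52% of all genes), in N+P C1 against Naive (1.85%) and in Sensitized against Naive (2.73%), the last including *Tnfsf4* on 2 counts against 0. It called 1, *Tnfsf4*, in S+P C5 against Sensitized (2.63%). 

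A second reading asked only whether the samples of the groups overlapped. For N+P C5 against Naive 4 of the 6 ligands had every sample higher (*Tnfsf4*, *Tnfsf8*, *Tnfsf11* and *Tnfsf14*), compared to 7.4% of all genes. For N+P C5 against N+P C1 it was 5 of 6, all but *Tnfsf10*, compared to 5.48% of all genes. S+P C5 lay wholly above Sensitized for 1 of 6 (*Tnfsf4*; 1.45% of all genes) and wholly above S+P C4 for 2 of 6 (*Tnfsf4* and *Cd40lg*; 0.585% of all genes). S+P C4 (0.0916% of all genes) and S+P C7 (0.773%) lay wholly above Sensitized for 0 of 6. Without the low-detection samples *Tnfsf11* joined the ligands wholly higher in S+P C5 than in S+P C4 (3 of 6, 0.997% of all genes). *Tnfsf4* then also lay wholly above Sensitized in S+P C4 (1.17% of all genes) and in S+P C7 (2.66%). For S+P C4 this rested on 1 count in its replicate 1 (0.0412 CPM) against 1 count in Sensitized replicate 3 (0.0303 CPM). Sensitized lay wholly above Naive for *Tnfsf11* and *Tnfsf14* (2 of 6; 3.78% of all genes), and N+P C1 wholly below Naive for *Tnfsf14* (1 of 6; 3.08%) and wholly above it for 0 of 6 (4.22%). S+P C7 lay wholly above S+P C4 for 0 of 6 (0.259% of all genes) and wholly above (0.107%) or below (0.29%) S+P C5 for 0 of 6. No ligand separated the PD1+CD73+ subset of sensitized mice from that of naive mice, where 0.967% of all genes were wholly higher and 1.7% wholly lower. The comparisons share groups with each other and are therefore not independent.

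Promoter sequence is shown for *Tnfsf8*, *Tnfsf11* and *Tnfsf14*, the members of the RefSeq promoter table whose N+P C5 samples lay above all Naive and N+P C1 samples. The table held 4 of the 6 ligands, and *Tnfsf4* and *Cd40lg* were not among them. Each stretch is the 250 bases before the annotated start on GRCm38.p6, read 5′ to 3′ on the strand of the gene, with matches to GGAAA, the core recognised by NFAT factors, in capitals.
Tnfsf8 (chr4:63861285-63861534, minus strand): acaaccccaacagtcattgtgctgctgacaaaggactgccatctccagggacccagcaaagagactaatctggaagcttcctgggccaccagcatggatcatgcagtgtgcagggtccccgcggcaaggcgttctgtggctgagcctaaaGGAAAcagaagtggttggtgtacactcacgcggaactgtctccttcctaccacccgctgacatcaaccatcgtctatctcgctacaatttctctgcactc
Tnfsf11 (chr14:78308044-78308293, minus strand): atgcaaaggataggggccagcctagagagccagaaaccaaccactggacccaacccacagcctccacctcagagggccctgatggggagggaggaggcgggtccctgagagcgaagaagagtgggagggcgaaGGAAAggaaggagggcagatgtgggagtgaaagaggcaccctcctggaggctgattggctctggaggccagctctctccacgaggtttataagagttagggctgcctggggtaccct
Tnfsf14 (chr17:57194182-57194431, minus strand): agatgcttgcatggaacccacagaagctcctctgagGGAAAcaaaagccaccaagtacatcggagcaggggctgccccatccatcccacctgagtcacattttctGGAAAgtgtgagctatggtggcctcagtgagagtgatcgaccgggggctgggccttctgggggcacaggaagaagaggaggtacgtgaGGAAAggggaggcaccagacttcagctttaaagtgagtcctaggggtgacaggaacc
GGAAA occurred 1 time each in *Tnfsf8* and *Tnfsf11* and 3 times in *Tnfsf14*, each time on the strand of the gene, and 55.6% of 32841 promoters of this length held it on either strand. All motifs were searched on both strands. The AP-1 letters TGANTCA occurred in *Tnfsf14* only, 160 to 154 bases before the start, and in 6.75% of all promoters. The kappaB motif, taken as GGG and CC with any 5 bases between them, occurred in *Tnfsf11* and *Tnfsf14* and in 45.8% of all promoters. None of the GGAAA matches overlapped the other 2 motifs. These matches describe the letters in this window and no binding was measured.

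The post-partum subsets can also be compared within a mouse. *Tnfsf4*, *Tnfsf8* and *Cd40lg* were higher in C5 than in C4 in 6 of 6 S+P mice, and *Tnfsf10*, *Tnfsf11* and *Tnfsf14* in 5 of 6. The exception for *Tnfsf11* was mouse 2, with 45.6 CPM in its low-detection C4 sample and 20.7 CPM in C5. Between C7 and C5, *Tnfsf4*, *Tnfsf8* and *Tnfsf11* were lower in C7 in 5 of 5 mice, counting the averaged sample with mouse 1; its 1.49, 9.68 and 2.69 CPM were also under the C5 values of mouse 2. *Tnfsf10* went the other way and was higher in C7 in 4 of 5 mice, and *Tnfsf14* was higher in 2 of 5 and *Cd40lg* in 1 of 5. In N+P mice all ligands but *Tnfsf10* were higher in C5 than in C1 in 3 of 3, and *Tnfsf10* in 2 of 3. C4 replicates 2 and 3 and C7 replicate 3, the low-detection samples, are part of these counts. *Tnfsf4*, *Tnfsf8*, *Tnfsf10* and *Tnfsf14* were at 0 in both of these C4 samples, so any count in C5 made C5 higher. For *Tnfsf14* in mouse 3 that was 1 count against 0. In C7 replicate 3 *Tnfsf4* and *Tnfsf11* were at 0 and *Tnfsf8* had 1 count. No share of all genes was computed for these within-mouse counts.

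**Figure D2:**
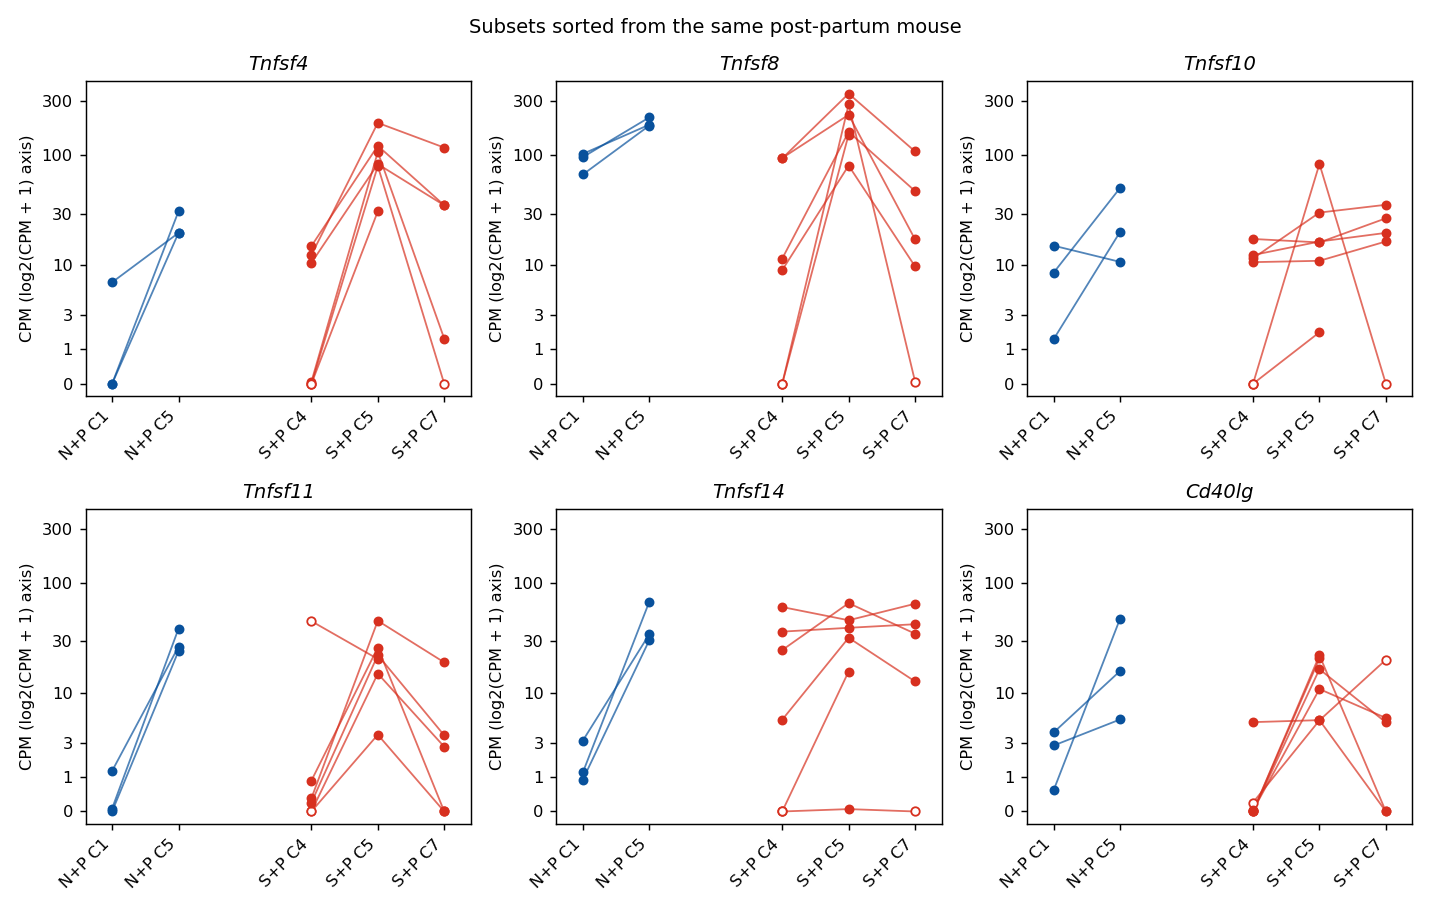
CPM of each ligand (y axis, log2(CPM + 1) scale) in the subsets sorted from 1 post-partum mouse (x axis), with a line per mouse: blue for the 3 N+P mice and red for the S+P mice, open points for the low-detection samples. *Tnfsf4* and *Tnfsf8* are highest in C5 among the subsets drawn for every S+P mouse, while *Tnfsf10* and *Tnfsf14* are not. Mouse 2 is drawn with C4 and C5 only, since the averaged C7 sample 1/2 is drawn with mouse 1.

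Technical libraries showed how far a single library can be trusted for these genes. Among the 23 samples with 2 distinct libraries, 1 library had 0 counts and the other more than 3 in 7 samples for *Tnfsf11*, 6 for *Cd40lg*, 2 for *Tnfsf4* and *Tnfsf14* each, and 1 for *Tnfsf8* and *Tnfsf10* each. The 23 include S+P C7 replicate 1, which holds a library of the nearly identical pair, so its 2 libraries may come from different mice. It gave the case of *Tnfsf8* and 1 case each of *Tnfsf4* and *Tnfsf11*, which therefore may not be technical. In Sensitized replicates 2, 3 and 4, for example, *Tnfsf11* had 112, 132 and 229 counts in 1 library and 0 in the other. The same held for the 224 counts of *Tnfsf4* in N+P C1 replicate 1. In the C5 subsets, all 7 samples with 2 libraries (3 of N+P and 4 of S+P) had more than 3 counts in both libraries for each of the 6 ligands. In Naive and N+P C1 samples that was so in 0 of 5 for *Tnfsf4* and *Tnfsf11*, and in 5 of 5 for *Tnfsf8*.

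**Figure D3:**
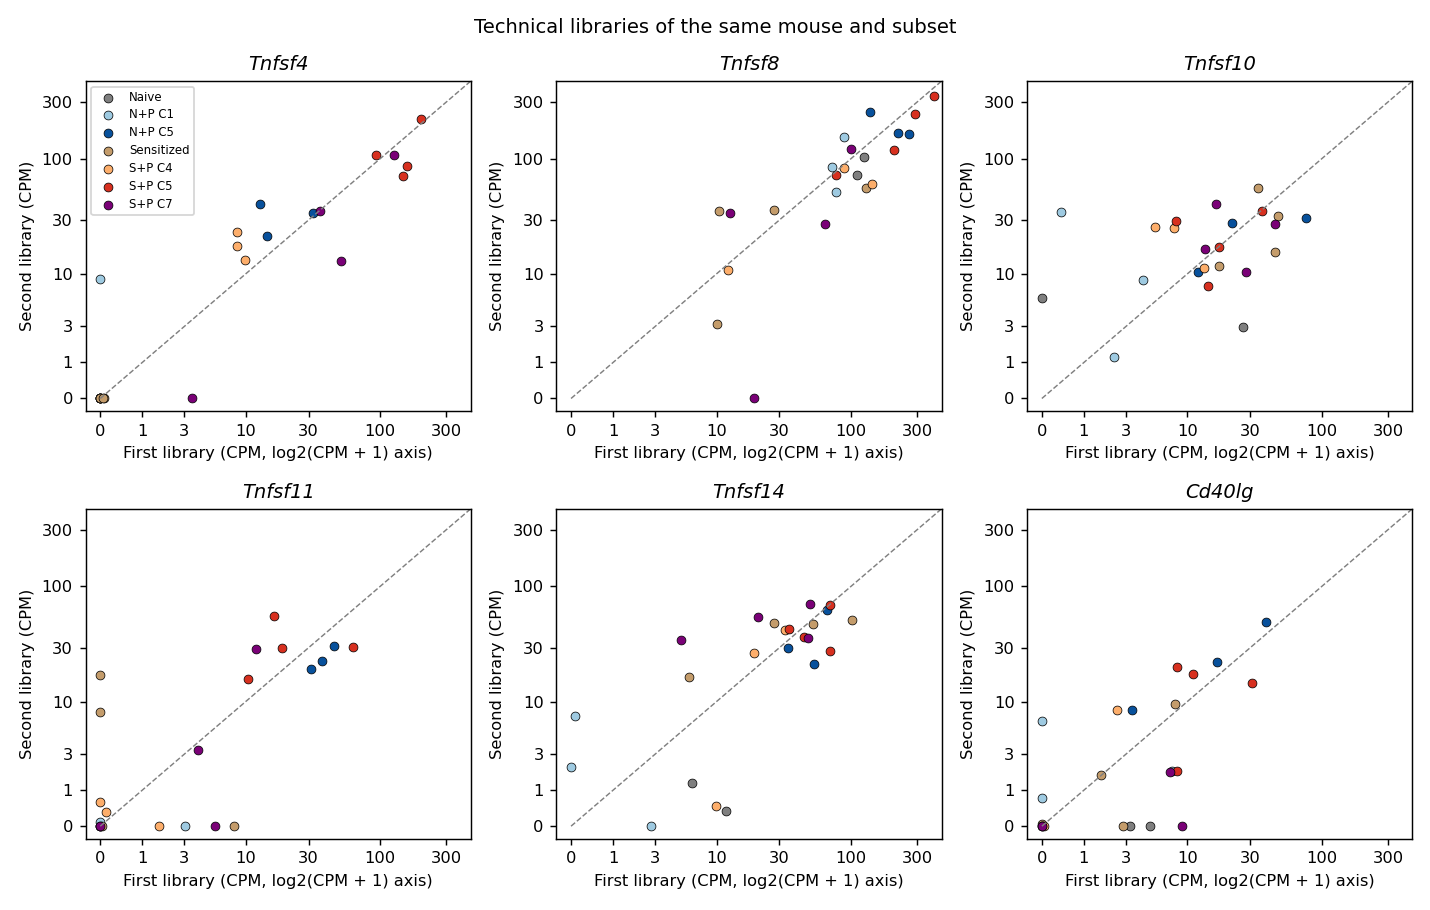
CPM of library totals in the first (x axis) and second (y axis) technical library labelled as the same mouse and subset, both on a log2(CPM + 1) scale, with 1 point for each of 23 samples, coloured by group; the dashed line marks equal values. Points on an axis have 0 counts in 1 library, which was so with over 3 counts in the other for *Tnfsf11* in 7 samples and for *Tnfsf8* in 1. That *Tnfsf8* point is S+P C7 replicate 1, whose 2 libraries may come from different mice.

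Per kb of exon, which allows ligands to be compared with each other, *Tnfsf8* had the highest mean level in Naive (24.8 CPM per kb), N+P C1 (23.2) and N+P C5 (50.9). In S+P C5 *Tnfsf4* and *Tnfsf8* stood at 55.6 and 54.4 CPM per kb, followed by *Tnfsf14* (17.7), *Tnfsf11* (9.98), *Cd40lg* (7.34) and *Tnfsf10* (4.93). In Sensitized *Tnfsf14* led with 22.7 CPM per kb, ahead of *Tnfsf8* (9.81) and *Tnfsf10* (6.16). In S+P C7 *Tnfsf4* (20.5) and *Tnfsf14* (16.5) were the highest and *Tnfsf8* stood at 9.57 CPM per kb. *Tnfsf14* had 23.6 CPM per kb in N+P C5 and 3.55 in Naive, and *Cd40lg* 12.5 and 2.43. Smaller differences between genes on this scale also depend on the transcript isoforms present, which a count per gene does not show.

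**Figure D4:**
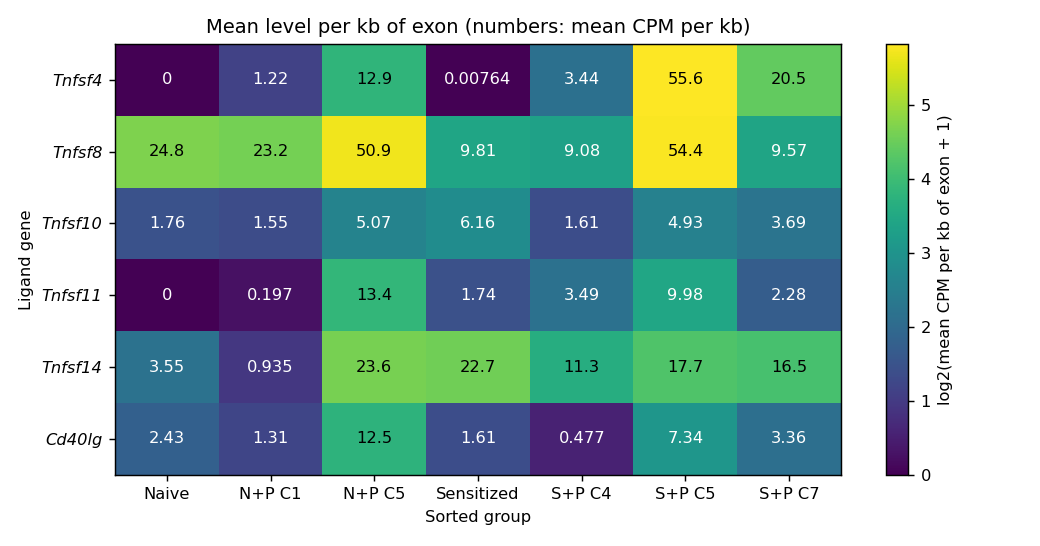
Mean CPM per kb of exon of each ligand (rows) in each sorted group (columns), with the value printed in each cell and the colour on a log2(value + 1) scale. S+P C5 combines the 2 highest values of *Tnfsf4* (55.6) and *Tnfsf8* (54.4), and N+P C5 holds the highest of *Tnfsf11* (13.4), *Tnfsf14* (23.6) and *Cd40lg* (12.5).

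A list of 12 genes held the receptors of these ligands together with *Btla* and *Cd160*, which bind the LIGHT receptor HVEM rather than one of the 6. Of these, 8 passed the filter and 0 were called in the edgeR 7-group test (1.84% of all genes), with 1 at an unadjusted p under 0.05 (20.6% of all genes). The 1 was *Tnfrsf4*, which encodes OX40, the receptor of OX40L (unadjusted p = 0.0402, adjusted p = 0.217, edgeR). Its mean level was 63.5 ± 27.0 CPM in N+P C5 (SD, n = 3) and 64.8 ± 48.5 in S+P C5 (n = 6), compared with 1.86 ± 2.03 in Naive (n = 3), 5.11 ± 3.37 in N+P C1 (n = 3), 6.05 ± 4.58 in Sensitized (n = 4), 5.15 ± 7.48 in S+P C4 (n = 6) and 19.5 ± 25.3 in S+P C7 (n = 5). *Tnfrsf8* (CD30) averaged at most 3.89 CPM in any group and *Tnfrsf10b* (the TRAIL death receptor) at most 8.21 CPM. The TRAIL decoy receptors *Tnfrsf22* and *Tnfrsf23* averaged at most 25.7 and 11.9 CPM, both in Sensitized. *Tnfrsf14* (HVEM) had means of 8.65 to 21.7 CPM, *Btla* of 38.8 to 138 CPM and *Cd160* of 43.1 to 169 CPM. *Tnfrsf11a* (RANK) did not pass the filter, with means of at most 0.781 CPM, nor did *Tnfrsf11b*, the decoy receptor of RANKL, with at most 0.504 CPM. *Cd40* and *Ltbr* (the lymphotoxin beta receptor) had a mean of 0 CPM in every group.

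Among 12 other TNF superfamily ligands, 9 were tested. In the edgeR 7-group test 4 had an unadjusted p under 0.05, as did 20.6% of all genes. Of these 1 was called (1.84% of all genes): *Fasl*, the death ligand of cytotoxic T cells (edgeR adjusted p = 0.0256). It was also the 1 gene of that list past both thresholds in a comparison, higher in Sensitized than in Naive by 6.12 on the log2 scale (edgeR adjusted p = 0.0566). *Fasl* means were 3.38 ± 2.91 CPM in Naive (SD, n = 3), 17.7 ± 14.8 in N+P C1 (n = 3), 53.3 ± 47.7 in N+P C5 (n = 3), 235 ± 96.7 in Sensitized (n = 4), 198 ± 196 in S+P C4 (n = 6), 62.5 ± 51.1 in S+P C5 (n = 6) and 276 ± 144 in S+P C7 (n = 5). The log2 difference of *Fasl* was 3.98 in N+P C5 against Naive (edgeR unadjusted p = 0.00261, adjusted p = 0.765), -1.91 in S+P C5 against Sensitized (edgeR unadjusted p = 0.0306, adjusted p = 0.319) and 2.14 in S+P C7 against S+P C5 (edgeR unadjusted p = 0.0132, adjusted p = 0.278). *Tnfsf15* and *Eda* had unadjusted p of 0.00953 and 0.0133 in the edgeR 7-group test, with means of at most 0.362 and 0.883 CPM. Of 15 genes that signal below the receptors (TRAF adaptors, cIAPs, NF-kappaB subunits and their inhibitors), all were tested and 0 had an unadjusted p under 0.05 in the edgeR 7-group test, where 20.6% of all genes did. The lowest was that of *Nfkbia*, which encodes the NF-kappaB inhibitor (0.316), followed by *Rel* (0.478) and *Map3k14* (0.547).

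The median fitted log2 difference over the 6 ligands was 2.55 for N+P C5 against Naive and 2.33 for S+P C5 against Sensitized, where the medians over all genes tested were 0 and -0.01. Fitted differences against a group at 0 depend on a prior count, so these medians are no bound. For the receptors the same medians were 0.97 and 0.43, for the signalling genes 0.17 and 0.21, and for the other TNF superfamily ligands 0.88 and -0.26. Over the 6 ligands the median was 2.03 for Sensitized against Naive and -0.14 for N+P C1 against Naive. Against Sensitized it was 0.18 for S+P C7 and -0.56 for S+P C4.

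Whether the difference between C5 and the unmated group was itself different in sensitized and in naive mice was tested as an interaction. edgeR called it for 0 of 6 ligands (0.0254% of all genes). *Tnfsf11* had an unadjusted p of 0.00936 (edgeR adjusted p = 0.649; 6.42% of all genes had an unadjusted p under 0.05), with means of 22.4 against 3.89 CPM in S+P C5 and Sensitized and of 30.1 against 0 CPM in N+P C5 and Naive. For *Tnfsf11* and *Tnfsf4* the interaction has no size that can be read, because Naive is at 0 for both. Sensitized held 2 counts of *Tnfsf4*, and its *Tnfsf11* counts came from 1 of 2 libraries in each sample. The *Tnfsf4* level itself was 102 ± 53.6 CPM in S+P C5 (n = 6) and 23.8 ± 6.60 CPM in N+P C5 (n = 3), and the 2 groups overlapped by the S+P C5 sample at 31.4 CPM, with no unadjusted p under 0.05.

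The genes whose log2 CPM followed each ligand most closely over the 30 samples were sought among 8263 others with a mean of at least 10 CPM (8264 for *Cd40lg*). For *Tnfsf4* these were *Tox2* (Pearson's r 0.90) and *1700019D03Rik* (0.89), and for *Tnfsf11* *Icos* (0.86), *Cxcr3* (0.77) and *Mllt3* (0.75). Over the 27 samples without the low-detection ones *Tox2* kept r 0.88 with *Tnfsf4* and *Icos* 0.84 with *Tnfsf11*. *Cyth3* (0.94), *Inpp5f* (0.94) and *St6galnac3* (0.93) led for *Tnfsf8*, and *Gmppb* (0.93), *Inpp5e* (0.92) and *Slamf1* (0.92) for *Tnfsf10*. Over the 27 samples these were between 0.57 and 0.70. *Uap1l1* (0.91), *Umad1* (0.91) and *Il15ra* (0.90) led for *Tnfsf14*, and *Ccdc137* (0.61), *Pptc7* (0.59) and *Phkb* (0.59) for *Cd40lg*. Between ligands, *Tnfsf8* and *Tnfsf10* had r 0.78 over 30 samples and -0.08 over 27, and *Tnfsf4* and *Tnfsf11* 0.56 and 0.61. The samples share groups, mice and depth, so these values are descriptions.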

How the data were processed

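SmartSeq2 libraries of 200 sorted T_FGS each were sequenced. The authors trimmed the reads with Cutadapt 3.4, aligned them with STAR 2.6.1b to GRCm39, dropped reads mapping to several places and deposited raw counts per gene from featureCounts 2.0.1, with technical libraries in separate columns. The annotation release is not given in the sources used here.

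The 56 libraries (6636532 to 32625243 counts) were summed per mouse and subset into 30 samples, after an identical library was left out of both groups that held it and a nearly identical pair was averaged. Groups came from the labels. All 7 groups were fitted with edgeR 4.0.16 (TMM, filterByExpr minimum count 10, robust quasi-likelihood), two-sided, with Benjamini-Hochberg adjustment over 19657 genes. A call needed an adjusted p under 0.1 and, in a comparison of 2 groups, an absolute log2 fold change above 0.9. CPM are counts per 1000000 of the TMM-scaled library. Coordinates and exon lengths are from GENCODE M39 on GRCm39. Promoters are from RefSeq.

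The members, gene lists, tests and alternatives were chosen with earlier results of these data known. All members are named with their values. Fold changes and p-values are given where the unadjusted p was under 0.05, and of each list the genes past the thresholds, the 3 with the smallest p in the 7-group test and the members' receptors. *Tnfrsf22*, *Tnfrsf23*, *Tnfrsf11b*, *Ltbr* and *Cd160* were added after their values were seen. Subsets of a post-partum mouse share its number in the labels. Deviations from group means correlated by 0.118 on average within a mouse and by -0.0203 between mice. The block was fitted with limma 3.58.1. DESeq2 1.42.0 was an alternative. The fit was tested on simulated data, with 200 of 18308 genes changed by 3 on the log2 scale in S+P C5. For S+P C5 against Sensitized the fit called 65 genes, of which 62 were among the 200 changed. In the 7-group test it called 101 genes, of which 86 were among the 200. The rest of the 200 were missed, and the other calls were false. For Sensitized against Naive, where nothing was changed, the fit called 0 genes. The mice came from 2 sorting experiments in the study's methods, and the labels do not say which. Where it matters, the floor was 3 counts per sample. A marker gene and a gene with a pattern like that of *Tnfsf4* are not reported here.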

Additional observations from a re-analysis of the deposited data

Results flagged for a closer look

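Within groups of 4 to 6 mice, 5 samples of a ligand lay far from the rest of their group, with a gap to the nearest sample above the 95% critical value of Dixon's test. 24 groups were tested. The rate of about 1 in 20 by chance holds for normally distributed values. Many of these CPM were at or near 0, so that rate cannot be applied here. *Tnfsf10* in S+P C5 replicate 3 was at 83.5 CPM, with the other 5 samples at 1.83 to 30.7 CPM. This sample came from 1 library. *Tnfsf11* in S+P C4 replicate 2, a low-detection sample, was at 45.6 CPM, while the other 5 reached at most 0.861 CPM. *Tnfsf11* in S+P C7 replicate 5 was at 19.3 CPM, with the other 4 between 0 and 3.64 CPM. *Cd40lg* in S+P C4 replicate 4 was at 5.07 CPM, and the other 5 reached at most 0.198 CPM. *Cd40lg* in S+P C7 replicate 3 was at 20.4 CPM, with the others between 0 and 5.60 CPM. That sample also had 7879 detected genes and 16708 CPM of erythroid and platelet markers, and their part in the result was not tested.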

How the results depend on the processing

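The 7-group call of *Tnfsf4* was made under each of the 8 alternatives that give this test and in each of the 30 fits that left out 1 sample (adjusted p 0.00313 to 0.0442). That of *Tnfsf8* (0.435 as reported) was gained with DESeq2 on separate technical columns (0.0243), limma-voom with the replicate block (0.0130) and without the mouse term (0.0279), and without the low-detection samples (0.0880). *Tnfsf11* (0.161) was gained with DESeq2 on separate columns (0.00852), with no filter on low counts (0.0257), limma-voom with the block (0.000448) and without it (0.000793), without the low-detection samples (0.0141) and without S+P C4 replicate 2 (0.0609; 0.0609 to 0.232 over all fits leaving out 1 sample). *Tnfsf14* (0.729) was gained with DESeq2 on separate columns only (0.0164), and *Cd40lg* (0.616) with limma-voom with the block (0.0685) and without it (0.0923). The fit without the low-count filter called 17006 of 40335 genes in the 7-group test against 362 as reported, DESeq2 on separate columns 1280, limma-voom with the block 841 and without it 740, and edgeR without the low-detection samples 771. The causes were not tested.

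No ligand was called in any comparison of 2 groups as reported. DESeq2 on separate columns, which treats technical libraries as samples, called 3 for Sensitized against Naive, 2 for N+P C1 against Naive, 3 for N+P C5 against Naive, 2 for N+P C5 against N+P C1, 1 for S+P C4 against Sensitized, 1 for S+P C7 and 2 for S+P C5 against it, 2 for S+P C5 against S+P C4, 1 for S+P C7 against S+P C5 and 2 for the interaction, in comparisons where it called 1.21% to 2.59% of all genes. On summed samples DESeq2 called 2 for Sensitized, 2 for N+P C1 and 2 for N+P C5 against Naive, 1 each for S+P C7, S+P C4 and S+P C5 against Sensitized, and 2 for the interaction (1.85% to 2.73% of all genes). These include *Tnfsf4* in Sensitized against Naive, which rests on 2 counts against 0. With only the groups compared in the fit, edgeR called 2 for N+P C5 against Naive, 1 for N+P C5 against N+P C1, 1 for S+P C5 against Sensitized and 1 for the interaction (0.184% to 1.06% of all genes). Without the low-detection samples it called 2 for N+P C5 against Naive, 1 each for S+P C7 and S+P C5 against Sensitized, (0.353% to 1.02% of all genes), and with no filter 1 for S+P C5 against Sensitized (0.0174%).

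The replicate block in limma-voom called 2 for N+P C5 against Naive, 1 for N+P C5 against N+P C1, 1 each for S+P C7 and S+P C5 against Sensitized and 4 for S+P C5 against S+P C4 (0.392% to 2.35% of all genes). Limma-voom without the mouse term, added after seeing the data, called 2, 0, 1, 1 and 3 in these (0.244% to 1.04% of all genes), so the pairing itself added *Tnfsf11* in N+P C5 against N+P C1 and in S+P C5 against S+P C4. edgeR with mouse as a fixed term called 0 ligands in each of the 4 comparisons within mice, where it called 0% to 0.219% of all genes.

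Over the fits that left out 1 sample, 0 to 1 ligands were called for S+P C5 against Sensitized, *Tnfsf4* in 7 of 30: its adjusted p of 0.126 became 0.0616, 0.0908 and 0.0814 without N+P C1 replicates 1, 2 and 3, 0.0992, 0.0563 and 0.0622 without S+P C4 replicates 1, 2 and 3, and 0.0418 without S+P C7 replicate 3. The fitted difference of *Tnfsf4* for N+P C1 against Naive, 9.21 as reported, ran from 0 without N+P C1 replicate 1 to 9.80 without replicate 2. RLE in place of TMM and keeping all 56 columns changed no call of a ligand. With 200 cells per library, groups of 3 mice and libraries that miss a transcript, absence of a call does not show equal levels.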
